A study of Mus musculus with 12 samples.

Results

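The enzymes that make prostaglandins, thromboxane and leukotrienes from arachidonic acid were examined in elicited peritoneal macrophages. The set held 10 genes, Pla2g4a, Ptgs1, Ptgs2, Ptges, Hpgds, Tbxas1, Alox5, Alox5ap, Ltc4s and Lta4h, chosen by their symbols. All 10 of 10 were among the 12339 genes of the count table. The mice were wild type (WT) or of a line labelled meKO. The labels do not spell out meKO or say which Cre line drives a deletion; from the series title, which names protein kinase C epsilon in myeloid cells, it is taken to lack Prkce in those cells. All groups shared 1 treatment, an injection at 8 weeks of age of AAV8PCSK9, a viral vector aimed at the LDL receptor of hepatocytes, so the chow groups are not untreated mice. The 4 groups were WT on chow, WT on high-fat diet (HFD), meKO on chow and meKO on HFD, and cells elicited with thioglycolate were collected from the peritoneum after 4 weeks of diet. Each group had 3 libraries. The labels describe 8 animals per genotype, 4 of them on HFD, and do not say whether a library came from a single animal, so p-values measure the spread between these libraries.

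Eicosanoids are short-lived lipid signals made from arachidonic acid that phospholipase A2 cuts out of membrane phospholipids. Cyclooxygenases turn the freed acid into prostaglandin H2, from which terminal synthases make prostaglandin E2, prostaglandin D2 or thromboxane A2. In the other branch 5-lipoxygenase, helped by its activating protein FLAP, makes leukotriene A4, which leukotriene A4 hydrolase turns into leukotriene B4 and leukotriene C4 synthase turns into leukotriene C4. Macrophages make products of both branches, and in this cell type cyclooxygenase 2 and the inducible prostaglandin E synthase are known as genes switched on by inflammatory stimuli.

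Promoter letters are shown for 4 members that either rose or fell with the diet in the comparisons below. They were picked because their windows hold a shared short word before the start of transcription. RefSeq promoter windows on the GRCm38.p6 build, from 250 bases before the start site to 50 bases after it, were matched for 9 members; Alox5ap had none. GAGGAA, the core word bound by the ETS factor PU.1 of myeloid cells, was searched on both strands. It was present in the windows of 8 of the 9 members, Pla2g4a being the exception, and in 28.3% of the 32851 promoter windows of the table. The 150 bases before the start site are printed from 5′ to 3′ on the gene's own strand, with GAGGAA or its reverse complement TTCCTC in capitals. The intervals are chr6:38918836-38918985 on the plus strand for Tbxas1, chr2:36230276-36230425 on the plus strand for Ptgs1, chr6:116461179-116461328 on the minus strand for Alox5 and chr6:65144731-65144880 on the minus strand for Hpgds.
Tbxas1: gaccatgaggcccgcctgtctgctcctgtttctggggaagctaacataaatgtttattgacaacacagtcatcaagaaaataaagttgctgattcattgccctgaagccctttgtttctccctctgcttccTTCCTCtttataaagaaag
Ptgs1: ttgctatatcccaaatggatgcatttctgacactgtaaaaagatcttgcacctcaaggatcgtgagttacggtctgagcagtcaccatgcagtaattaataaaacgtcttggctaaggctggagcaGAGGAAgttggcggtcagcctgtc
Alox5: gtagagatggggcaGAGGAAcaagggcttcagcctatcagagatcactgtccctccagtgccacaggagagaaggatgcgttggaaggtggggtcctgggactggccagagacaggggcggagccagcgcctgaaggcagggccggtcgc
Hpgds: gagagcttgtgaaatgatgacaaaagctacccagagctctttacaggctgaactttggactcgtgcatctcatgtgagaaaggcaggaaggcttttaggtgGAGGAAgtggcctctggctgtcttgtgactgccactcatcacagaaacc

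The word lay at positions -19 to -14 from the start site in Tbxas1, -24 to -19 in Ptgs1, -49 to -44 in Hpgds and -136 to -131 in Alox5. The other words named here were also searched on both strands, and their shares count either strand. The Tbxas1 window held the core promoter word TATAAA at -11 to -6. It overlaps the reverse complement of that word, TTTATA, at -13 to -8. The same window held the AP-1 word TGANTCA at -61 to -55. TATAAA was present in 13.6% of all windows and TGANTCA in 7.81%. The Ptgs1 window held the C/EBP word TTNNNCAA at -42 to -35, where it reads on the strand opposite to the printed one. That word was found in 36.7% of windows. Alox5 held the GC box GGGCGG at -35 to -30, found in 35.7%. In the Ltc4s window, GAGGAA lay after the start site, at 17 to 22. The windows of members that rose and of members that fell both held the word. So did those of Ptgs2, Ptges and Lta4h, which edgeR called in no comparison, so the word is not particular to members that changed. A match describes letters only; no binding was measured here.

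The targeted gene and the make-up of the libraries were checked first. Prkce was lower in all 6 meKO libraries, which ran from 0.95 to 1.78 CPM (reads scaled to library size), than in all 6 WT libraries, which ran from 2.01 to 4.44 (p = 0.00216 by an exact permutation of the genotypes, two-sided, the lowest value possible with 924 splits). By edgeR it was not called in a genotype comparison (adjusted p = 0.0794 on chow, 0.989 on HFD and 0.0588 averaged over diets). Total counts per library ran from 25845000 to 37282800. Lyz2, a macrophage lysozyme, had 69.3 CPM in meKO chow replicate 2, so that library stands apart. The other meKO libraries had 16293 to 21310 CPM and the WT libraries 30482 to 53835 CPM, so Lyz2 was lower in every meKO library. By edgeR Lyz2 was not called for genotype (adjusted p = 0.506 on chow, 0.999 on HFD and 0.468 averaged over diets). WT chow replicates 1 and 2 stood apart in a second way: their deviations from each gene's mean rose with transcript length, with a Spearman rho across 12049 genes of 0.63 and 0.67, against -0.46 to 0.14 in the other 10 libraries. The identity markers of macrophages were present, 10 of 10 in the table with a summed level of 6125 to 59858 CPM, the lowest being the library poor in Lyz2. Lyz2 made up most of this sum in every other library, so the range mainly follows Lyz2. Among markers of other cells, 10 of 10 mast cell markers were listed at a summed 59.4 to 363 CPM, 7 of 10 neutrophil markers at 141 to 200 CPM, and 3 of 10 platelet markers at 79.8 to 312 CPM, nearly all of it Pf4. Eosinophil markers, 3 of 6 listed, summed to 14.1 to 56.3 CPM. Dendritic cell markers, 8 of 8, summed to 19.5 to 53.8 CPM, and T and NK cell markers, 9 of 10, to 14.5 to 32.1 CPM. For the diet in WT their median log2 fold changes were -0.50, -0.81 and 0.07. The calls were 0 of 3 for eosinophils, 1 lower of 8 for dendritic cells, and 1 higher and 1 lower of 9 for T and NK cells, beside 21.3% of all genes. For genotype averaged over diets, edgeR called 3 of the 7 neutrophil markers higher in meKO and 0 lower, beside 0.17% of all genes. The median log2 fold change of those 7 markers was 0.72. The B cell markers, 9 of 10 listed, moved with the diet: they summed to 129 to 190 CPM in WT on chow and 63.5 to 101 CPM in WT on HFD, and 6 of the 9 were called lower. The markers of mesothelium and stroma, 10 of 10 listed, summed to 44.3 to 74.2 CPM in WT on chow and 78.1 to 120 CPM in WT on HFD, with 3 called higher. Of all genes, 21.3% were called in that comparison. In meKO these sums were 88.3 to 184 and 65.9 to 127 CPM for B cells and 45.3 to 80.4 and 94.1 to 125 CPM for mesothelium and stroma, with 0 called in either list, beside 0.105% of all genes. Both lists moved the same way in the 2 genotypes. The median log2 fold change was -1.05 in WT and -0.79 in meKO for B cells, and 0.68 and 0.95 for mesothelium and stroma. The part of these cells in the diet results that follow was not tested. Single marker genes named here and below were chosen after their values were seen.

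The 10 genes lie on 6 chromosomes of the GRCm38 build (GENCODE M21 annotation). On chromosome 6 are Tbxas1 (chr6:38875404-39084585, plus strand), Hpgds (chr6:65117293-65144908, minus) and Alox5 (chr6:116410077-116461178, minus). On chromosome 1 Pla2g4a (chr1:149829618-149961290, minus) and Ptgs2 (chr1:150100031-150108227, plus) are neighbours. Ptgs1 (chr2:36230426-36252272, plus) and Ptges (chr2:30889471-30929863, minus) share chromosome 2, Alox5ap is at chr5:149264767-149288153 (plus), Lta4h at chr10:93453411-93484875 (plus) and Ltc4s at chr11:50236461-50238616 (minus). The RefSeq start of Tbxas1 used for its promoter lies inside the longer GENCODE interval.

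Levels between genes were compared as CPM per kilobase of each gene's longest coding transcript, so the order depends on which transcript is made. Averaged over the 12 libraries, Alox5ap, which encodes FLAP, was the highest at 265 ± 46.8 CPM per kilobase (SD). Ltc4s (leukotriene C4 synthase) followed at 198 ± 61.8, and Alox5ap lay above it in 12 of 12 libraries. Tbxas1 (thromboxane A synthase) stood at 112 ± 20.8 and Lta4h (leukotriene A4 hydrolase) at 94.1 ± 13.7 CPM per kilobase. These neighbours were not separated, since Tbxas1 lay above Lta4h in 8 of 12 libraries. Hpgds, the hematopoietic prostaglandin D synthase, had 61.1 ± 9.14 CPM per kilobase.

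A gap followed: Pla2g4a, the cytosolic phospholipase A2 that releases arachidonic acid, had 10.5 ± 1.83 CPM per kilobase. Ptgs1, cyclooxygenase 1, had 7.44 ± 0.891 and lay below Pla2g4a in 11 of 12 libraries. Alox5, the 5-lipoxygenase itself, had 4.44 ± 1.89 CPM per kilobase, so the mean of its partner Alox5ap was 59.6 times higher. Ptges, the inducible prostaglandin E synthase, had 0.688 ± 0.144, and Ptgs2, the inducible cyclooxygenase 2, was lowest at 0.195 ± 0.0927 CPM per kilobase. The Ptgs2 counts behind this were 9 to 53 reads per library, so its values are the least precise of the set.

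**Figure D1:**
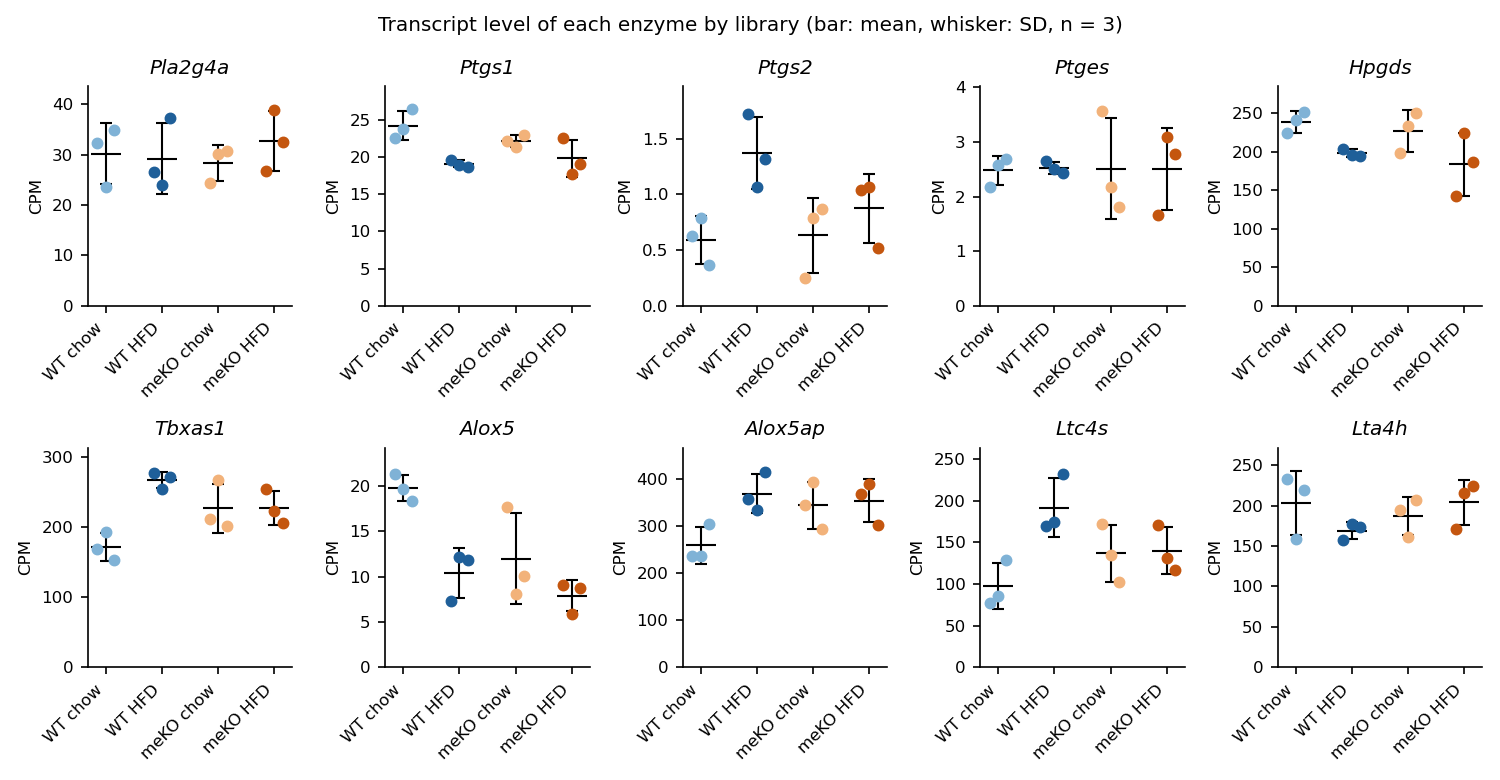
Level of each of the 10 enzymes in each library, in TMM-scaled CPM on linear axes that start at 0, with 1 point per library, the group mean as a bar, the SD as a whisker (n = 3) and the 4 groups along the horizontal axis. Ltc4s, Tbxas1 and Alox5ap sit higher, and Alox5 and Ptgs1 lower, in the WT HFD libraries than in the WT chow libraries, while the meKO groups overlap between diets for all 10 enzymes.

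The first comparison asked what the high-fat diet did in WT macrophages. In this comparison 5 of the 10 enzymes changed: Tbxas1, Alox5ap and Ltc4s were higher on HFD, and Ptgs1 and Alox5 were lower (edgeR quasi-likelihood test, Benjamini-Hochberg adjusted p under 0.05). Of all genes tested, 21.3% were called in the same comparison, so many other genes moved too. The median log2 fold change of the 10 enzymes was -0.01, beside -0.03 over all genes. Counted by groups that do not overlap, 7 of the 10 enzymes separated the WT diets, against 39.3% of all genes. Members of both branches were among those that changed, and they moved in both directions. RNA came from bulk cells, so fewer cells of a type and less RNA per cell cannot be told apart in any result here.

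Pla2g4a, at the head of both branches, had 32.2, 23.5 and 34.9 CPM in the WT chow libraries and 26.5, 23.9 and 37.2 CPM in the WT HFD libraries. The ranges overlapped almost entirely. The fold change was -0.05 ± 0.19 (SE, log2 scale) with a 95% interval of -0.46 to 0.37.

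Ptgs1, the cyclooxygenase that most cells make at a steady level, had 22.6, 23.7 and 26.4 CPM in WT on chow and 19.6, 18.9 and 18.7 CPM in WT on HFD. The groups did not overlap, and the HFD libraries lay close together. The fall was 0.35 on the log2 scale, with an SE of 0.12 (edgeR adjusted p = 0.0479). This call sat at the threshold and was lost on leaving out any of 10 of the 12 libraries, with adjusted p from 0.0587 to 0.162; it was kept without meKO HFD replicate 1 or 2.

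Ptgs2 had 0.622, 0.784 and 0.364 CPM in WT on chow and 1.72, 1.07 and 1.32 CPM in WT on HFD. The HFD libraries were all above the chow libraries. The log2 fold change was 1.21 ± 0.44 (SE), the largest of the set, but the edgeR adjusted p was 0.0616 and the gene was not called. DESeq2 called it (adjusted p = 0.0402), and so did voom with library quality weights (0.0263), so its place relative to the threshold depends on the tool. By length-scaled level, Ptgs2 made up 1.74%, 2.08% and 0.879% of the cyclooxygenase transcripts in WT on chow and 5.33%, 3.5% and 4.36% in WT on HFD. Ptgs1 was thus the main cyclooxygenase transcript in every library, the largest Ptgs2 share being 5.33%.

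Among the terminal prostanoid synthases, Tbxas1, which turns prostaglandin H2 into thromboxane A2, rose. It had 169, 194 and 153 CPM in WT on chow and 277, 255 and 272 CPM in WT on HFD, with a wide gap between the groups. The log2 fold change was 0.64 ± 0.13 (SE; edgeR adjusted p = 0.0121). Removing WT chow replicate 1 (0.0609) or replicate 3 of WT HFD (0.0632) ended the call. Pf4, the platelet marker that macrophages can also express, moved beside it, at 77.7, 127 and 180 CPM on chow and 192, 217 and 266 CPM on HFD, without passing the test (adjusted p = 0.129). Of the 10 platelet markers, Itga2b and Ppbp stood at or under 4.23 CPM in every library and 7 were not listed, among them Gp9 and Gp1ba, and the part of platelets in the Tbxas1 result was not tested.

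Hpgds makes prostaglandin D2 and, among blood-derived cells, is also a gene of mast cells. It had 224, 242 and 252 CPM in WT on chow and 204, 196 and 194 CPM in WT on HFD. The groups did not overlap, yet the log2 fold change of -0.27 ± 0.14 (SE) was not called (edgeR adjusted p = 0.172). The summed mast cell markers ran from 217 to 260 CPM on chow and from 206 to 238 CPM on HFD, and 1 of the 10, Kit, was called, lower on HFD at -1.13 ± 0.28 (0.0209); their part in the Hpgds values was not tested. Ptges, which makes prostaglandin E2 downstream of cyclooxygenase 2, had 2.18, 2.58 and 2.68 CPM on chow and 2.65, 2.51 and 2.44 CPM on HFD. On the log2 scale the difference was 0.03 ± 0.28 (SE), with a 95% interval of -0.56 to 0.63, so a change of up to about that size could not be seen at this depth.

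In the leukotriene branch, the enzyme and its partner moved in opposite directions. Alox5 had 21.3, 19.7 and 18.4 CPM in WT on chow and 7.28, 12.2 and 11.8 CPM in WT on HFD. Every HFD library was below every chow library. It fell by 0.93 on the log2 scale with an SE of 0.27 (edgeR adjusted p = 0.0301), a call lost on removing replicate 1 or 2 of WT chow or replicate 1 or 3 of WT HFD (adjusted p 0.0905 to 0.118). Alox5ap had 236, 236 and 304 CPM on chow and 358, 335 and 415 CPM on HFD, again without overlap. It rose by 0.51 ± 0.15 on the log2 scale (SE; edgeR adjusted p = 0.0292), a call lost without the same 4 libraries (0.066 to 0.127).

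The ratio of Alox5ap to Alox5 transcripts, per kilobase, shows the 2 changes together. It was 24.9, 27 and 37.2 in WT on chow and 111, 62.1 and 79.1 in WT on HFD. All HFD values lay above all chow values. Neutrophils also express Alox5, and their 7 listed markers summed to 156 to 200 CPM on chow and 141 to 150 CPM on HFD. Most of that sum was Csf3r and Mmp8. Csf3r had 112, 120 and 98.5 CPM on chow and 76.2, 72.3 and 69.9 CPM on HFD. Mmp8 had 36.6, 63.3 and 32.1 CPM on chow and 50.7, 48 and 46.1 CPM on HFD, with overlap. In that list S100a8 and S100a9 rose while 2 others fell, and Ly6g, Camp and Ngp were not listed; the part of neutrophils in the Alox5 result was not tested.

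Of the 2 enzymes that compete for leukotriene A4, Ltc4s, the source of the cysteinyl leukotrienes, rose. It had 77.5, 85.5 and 129 CPM in WT on chow and 170, 174 and 232 CPM in WT on HFD. The lowest HFD library was above the highest chow library. The rise was 0.98 ± 0.22 on the log2 scale (SE; edgeR adjusted p = 0.0165). Removing replicate 1 (0.0894) or 2 (0.0716) of WT chow or replicate 3 of WT HFD (0.0858) ended the call. Of the exonic bases of Ltc4s, 26.43% overlap Gm26542, an annotated gene on the other strand that the table does not list, and since the strand setting is not given in the sources used here, reads of that gene could be counted for Ltc4s. For Alox5ap the overlap with Gm19719 is 13.31%. Lta4h, which makes leukotriene B4, had 233, 158 and 219 CPM on chow and 157, 177 and 174 CPM on HFD. Those ranges overlapped, and the log2 fold change of -0.26 ± 0.15 (SE) was not called (edgeR adjusted p = 0.213). Per kilobase, Ltc4s over Lta4h was 0.944, 1.53 and 1.67 on chow and 3.07, 2.79 and 3.77 on HFD.

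**Figure D2:**
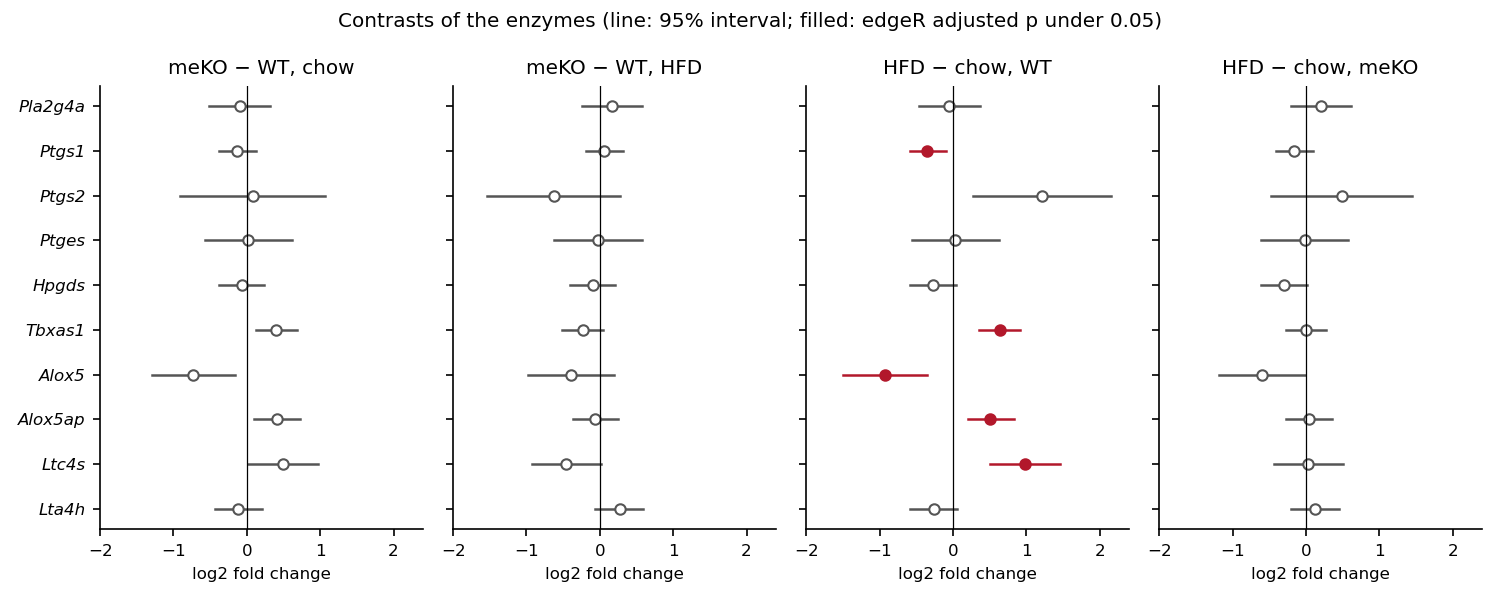
Log2 fold change of each enzyme (horizontal axis) with its 95% confidence interval as a bar, in 4 panels for genotype on chow, genotype on HFD, diet in WT and diet in meKO, with filled red points for enzymes called by edgeR at an adjusted p under 0.05. The 5 filled points are all in the panel of the diet in WT, Tbxas1, Alox5ap and Ltc4s to the right of 0 and Ptgs1 and Alox5 to the left.

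Transcript length moved with this comparison and was followed for each enzyme. Across genes, the WT diet fold change fell with transcript length (Spearman rho -0.57, a description across genes, which are not independent). The 2 enzymes with the shortest transcripts, Ltc4s (716 bases) and Alox5ap (1251 bases), were among the 3 that rose, while Ptgs1 (2867 bases) and Alox5 (2821 bases) fell. Tbxas1 has 1990 bases, close to the 2029 bases of Lta4h, which was not called. After a correction that removes the trend over length and GC content in each library, Tbxas1 (log2 fold change 0.54 ± 0.13, edgeR adjusted p = 0.0256), Ltc4s (0.70 ± 0.17, 0.0276) and Alox5 (-0.84 ± 0.25, 0.0488) were still called. Alox5ap then stood at 0.24 ± 0.10 (0.129) and Ptgs1 at -0.29 ± 0.10 (0.0652), so 3 of the 10 enzymes remained called. Over all genes, 1577 of 12339 were called after this correction.

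The 2 WT chow libraries that stand apart in length were then removed from the comparison. Leaving both out, an alternative chosen after seeing the data, left WT chow with 1 library, assumed to vary like the other groups. Calls cannot be weighed with 1 library in a group, so effect sizes are given here. The log2 fold changes were then 0.81 for Tbxas1, 0.57 for Ltc4s, 0.28 for Alox5ap, -0.82 for Alox5 and -0.47 for Ptgs1. The lone chow library had 153 CPM of Tbxas1 and 18.4 CPM of Alox5. For all of these enzymes the WT diets did not overlap before the removal. Any single chow library therefore lies outside the HFD range, and its place there adds no support.

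**Figure D3:**
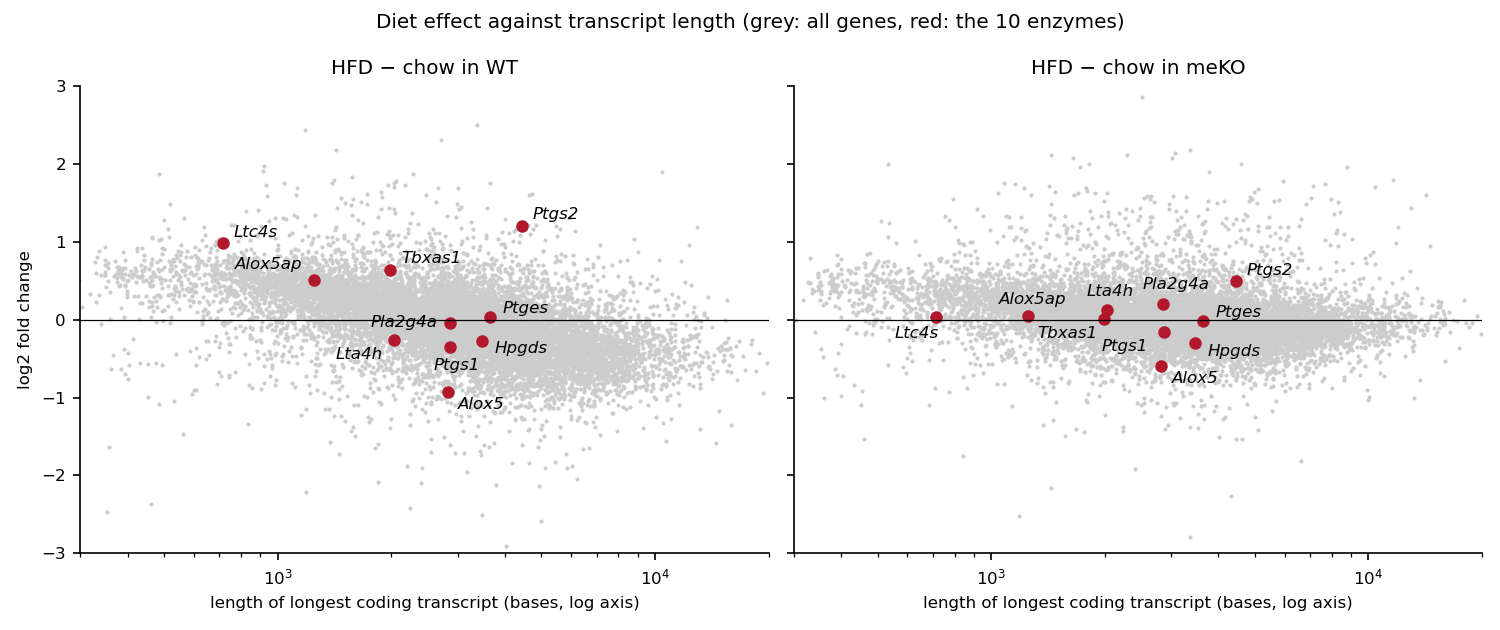
Log2 fold change for the diet (vertical axis) against transcript length in bases (log horizontal axis) in WT and in meKO, with all genes as grey points and the 10 enzymes as named red points. The grey points slope down with length in WT, with Ltc4s (716 bases) at the short end. How far an enzyme lies from genes of its length was not measured. Beyond 3 log2 units lie 4 genes in WT and 2 in meKO, and 43 of the 12049 genes with a length lie outside the length axis.

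The same diet comparison in meKO macrophages gave no call among the 10 enzymes, where 0.105% of all genes were called. At an unadjusted p under 0.05, edgeR gave 1 of the 10, Alox5, beside 15.9% of all genes, and no enzyme separated the meKO diets, against 19.7% of all genes that did. Alox5 had 17.7, 8.09 and 10.1 CPM in meKO on chow and 9.12, 5.91 and 8.7 CPM in meKO on HFD. The chow group was spread over a wide range, with replicate 1 alone near the WT chow level. The meKO difference was -0.60 ± 0.27 on the log2 scale (SE; edgeR adjusted p = 0.305).

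Tbxas1 had 212, 268 and 202 CPM in meKO on chow and 255, 224 and 206 CPM in meKO on HFD. Both groups spanned the space between the WT chow and WT HFD levels. Its log2 fold change was 0.00 with a 95% interval of -0.27 to 0.28. Ltc4s had 172, 135 and 103 CPM on chow and 171, 131 and 117 CPM on HFD, nearly the same 3 values on either diet. The log2 fold change was 0.03, with a 95% interval of -0.44 to 0.51.

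Alox5ap had 345, 393 and 293 CPM in meKO on chow and 368, 390 and 303 CPM in meKO on HFD, a log2 fold change of 0.04 with a 95% interval of -0.27 to 0.35. Ptgs1 had 22.1, 21.4 and 23 CPM on chow and 22.6, 17.7 and 19.1 CPM on HFD. Hpgds had 198, 234 and 250 CPM on chow and 142, 224 and 187 CPM on HFD, with replicate 1 of the HFD group the lowest of the 12 libraries. Ptgs2 had 0.246, 0.787 and 0.864 CPM on chow and 1.04, 1.07 and 0.516 CPM on HFD, so the groups overlapped. The remaining 3 enzymes, Pla2g4a, Ptges and Lta4h, had adjusted p of 0.599 to 0.986.

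Whether the diet acted differently in the genotypes was tested with the genotype by diet interaction, written as the diet effect in meKO minus that in WT. None of the 10 enzymes was called by edgeR, beside 0.0162% of all genes. At an unadjusted p under 0.05 there were 3 of 10, beside 6.13% of all genes: Tbxas1 at -0.64 ± 0.18 (SE), Ltc4s at -0.95 ± 0.31 and Alox5ap at -0.47 ± 0.21. Their edgeR adjusted p values were 0.773, 0.773 and 0.792, so a difference between the genotypes was not shown for them. These 3 are the enzymes that rose in WT, a rise that is part of the interaction. Voom with library quality weights, which gives less weight to libraries far from their group, called all 3 (adjusted p = 0.0405, 0.0287 and 0.049), beside 2.39% of all genes, and DESeq2 and plain voom called 0 of the 10. Alox5, which fell in WT and was not called in meKO, had an interaction of 0.33 ± 0.38 with a 95% interval of -0.48 to 1.14.

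The genotypes were then compared on each diet. On chow 0 of the 10 enzymes were called by edgeR, beside 0.081% of all genes. At an unadjusted p under 0.05 there were 4 of 10, beside 19.8% of all genes. These were Tbxas1 with a log2 fold change of 0.40 ± 0.13 (SE), Alox5ap with 0.41 ± 0.15, Ltc4s with 0.49 ± 0.22 and Alox5 with -0.73 ± 0.26, and their adjusted p ran from 0.135 to 0.243. The signs match those of the WT diet comparison, but both comparisons use the same 3 WT chow libraries, so neither supports the other.

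Without overlap between the genotypes on chow stood 2 enzymes, beside 17.1% of all genes: Tbxas1, at 212, 268 and 202 CPM in meKO against 169, 194 and 153 CPM in WT, and Alox5, at 17.7, 8.09 and 10.1 CPM against 21.3, 19.7 and 18.4 CPM. Leaving out WT chow replicate 3 brought 2 of the 10 enzymes past the threshold, Alox5ap at 0.56 (edgeR adjusted p = 0.0228) and Ltc4s at 0.76 (0.0321), which then rest on the 2 libraries that stand apart in length. Calls over all genes also varied widely in this comparison with 1 library left out, as given in the last section. These 2 calls are therefore not read as particular to the enzymes. Across genes the fold change of this comparison had a Spearman rho with transcript length of -0.62. After the correction for length and GC content no enzyme was called. Voom with library quality weights called Tbxas1, Alox5ap, Ltc4s and Alox5, 4 of the 10, beside 32.8% of all genes, a share near the background.

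On HFD no enzyme was called by edgeR, beside 0.081% of all genes, and 0 of the 10 had an unadjusted p under 0.05, beside 4.56% of all genes. Tbxas1 separated the genotypes on this diet, beside 10.3% of all genes, but with the sign turned: it had 255, 224 and 206 CPM in meKO against 277, 255 and 272 CPM in WT, where the highest meKO and the lowest WT library differed only beyond the printed digits. On HFD its log2 fold change was -0.23 ± 0.13 (SE; edgeR adjusted p = 0.999). Ltc4s had a log2 fold change of -0.46 ± 0.22 with a 95% interval of -0.93 to 0.02. Averaged over diets, no enzyme was called for genotype by edgeR, beside 0.17% of all genes, and 1 of the 10 had an unadjusted p under 0.05, Alox5, at -0.56 ± 0.19 (adjusted p = 0.186), beside 17.7% of all genes. Voom with library quality weights called Alox5 (0.0318), beside 31.1% of all genes. Of the 7 listed neutrophil markers, 3 were called higher in meKO by edgeR in the same averaged comparison. The part of neutrophils in the Alox5 values was not tested.

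Averaged over genotypes, the diet comparison called 5 of the 10 enzymes, beside 30.2% of all genes. On the log2 scale Alox5 stood at -0.76 ± 0.19 (SE; edgeR adjusted p = 0.0131), Ptgs1 -0.25 ± 0.08 (0.0337), Hpgds -0.29 ± 0.10 (0.0465), Tbxas1 0.32 ± 0.09 (0.0207) and Ltc4s 0.51 ± 0.16 (0.0286). Hpgds was called here and in neither genotype alone, and Alox5ap (0.28 ± 0.10, 0.0561) was not called. The Alox5 call held on leaving out each of the 12 libraries in turn, and was lost without both WT chow libraries that stand apart in length (0.134). The other calls were weaker: leaving out single libraries ended that of Hpgds in 10 of 12 cases, that of Ptgs1 in 9 and that of Ltc4s in 5. The Tbxas1 call was lost without meKO chow replicate 3 (0.057), and after the length and GC correction both Tbxas1 (0.24, adjusted p = 0.0825) and Ltc4s (0.28, 0.121) were not called.

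The balance of end products that the transcripts could serve was described as shares of the 5 terminal enzymes, per kilobase. Ltc4s took 29%, 32.7% and 41.1% of them in WT on chow and 46.2%, 47.1% and 53.8% in WT on HFD. The WT groups did not overlap, and after the length and GC correction the shares were 31.8% to 41.3% and 45.1% to 52.8%. In meKO, Ltc4s took 48%, 40% and 34.3% on chow and 48.5%, 39.3% and 37.7% on HFD, and the meKO means of 40.8% and 41.9% lay between the WT means of 34.3% and 49%. Lta4h took 30.8%, 21.3% and 24.6% in WT on chow and 15.1%, 16.9% and 14.2% in WT on HFD.

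Tbxas1 over Hpgds, thromboxane against prostaglandin D2 synthase, was 1.32, 1.4 and 1.06 in WT on chow and 2.37, 2.27 and 2.45 in WT on HFD. In meKO it was 1.87, 2 and 1.41 on chow and 3.12, 1.74 and 1.93 on HFD. The WT groups were well apart and the meKO groups overlapped. Ptges took at most 0.195% of the transcripts of these 5 terminal enzymes in any library. Other prostanoid synthases were left out of the sum. Among them, Ptges2 had a mean of 12 CPM over all libraries beside 2.51 CPM for Ptges, not scaled to length. It was called higher on HFD in WT (log2 fold change 0.50, edgeR adjusted p = 0.0299). With 1 library left out, that call held in 8 of 12 cases. Transcript shares say nothing of enzyme amounts or of the lipids made.

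**Figure D4:**
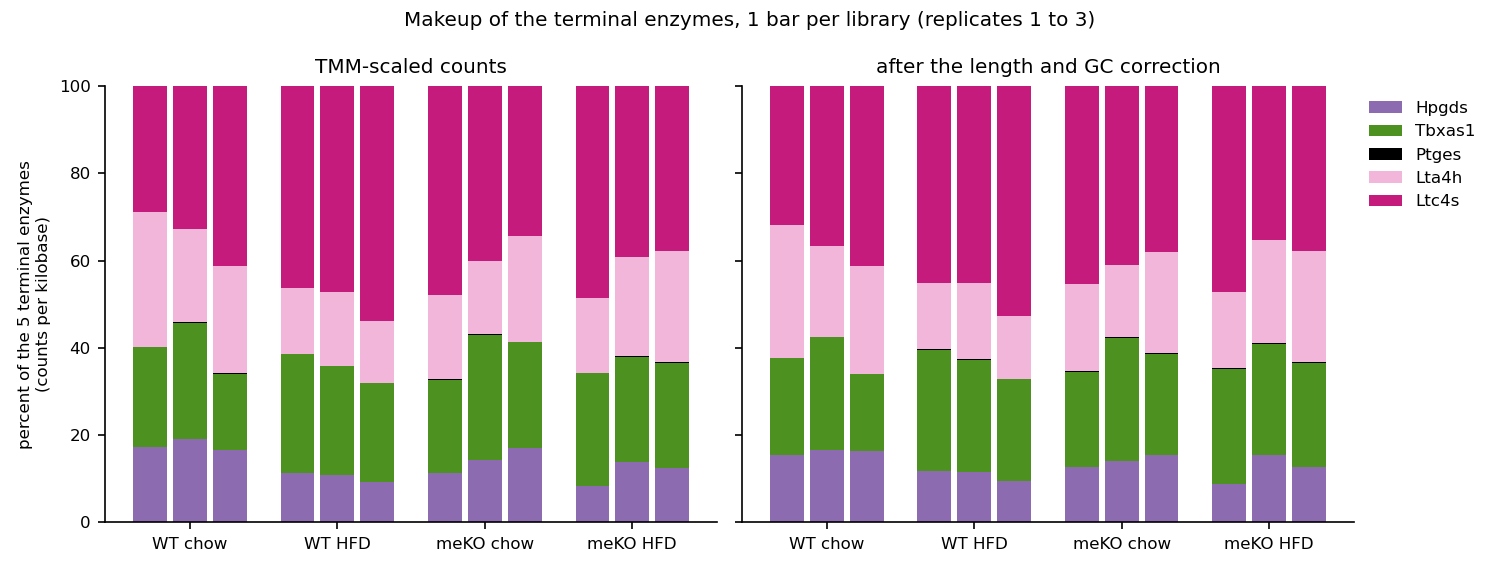
Share of the 5 terminal enzymes (Ltc4s, Lta4h, Tbxas1, Hpgds and Ptges) in each library, in percent of their summed level per kilobase, with 1 stacked bar per library grouped by genotype and diet, before (left) and after (right) the correction for length and GC content. On the left the Ltc4s part is 29% to 41.1% in the WT chow libraries and 46.2% to 53.8% in the WT HFD libraries, the meKO groups overlap, and Ptges is too small to see.

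The wider pathway was read from 7 lists of 123 genes, of which 77 were in the table. In WT the diet called 25 of the 77, 11 higher and 14 lower, with a median log2 fold change of -0.00, beside 21.3% of all genes called; the counts of the lists below are read against that same share. The other simple comparisons and the interaction called 0 of the 77 by edgeR, with 20 (genotype on chow), 6 (genotype on HFD), 17 (diet in meKO) and 7 (interaction) at an unadjusted p under 0.05, beside 19.8%, 4.56%, 15.9% and 6.13% of all genes. The list of arachidonate handling gave 1 higher and 4 lower of 19, a share near the 21.3% of all genes. Lpcat3, which loads polyunsaturated acyl chains into phospholipids, rose from 60.9, 62 and 68.8 CPM to 107, 100 and 97.6 CPM (log2 fold change 0.67 ± 0.10, edgeR adjusted p = 0.00388). Lpcat1, an acyltransferase with a liking for saturated chains, fell from 21.2, 20.7 and 14.6 CPM to 9.97, 10.5 and 9.66 CPM (-0.91 ± 0.15, 0.00647).

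Fads1, the delta-5 desaturase that makes arachidonic acid, fell. It had 38.7, 18.3 and 13.7 CPM in WT on chow, a wide spread led by replicate 1, and 7.22, 7.88 and 6.17 CPM on HFD (log2 fold change -1.74 ± 0.31, edgeR adjusted p = 0.00853). The regulators of cytosolic phospholipase A2 and 5-lipoxygenase gave 5 higher and 2 lower of 15. Gpx1, a peroxidase that lowers the lipid peroxides 5-lipoxygenase needs, rose from 1795, 2029 and 2277 CPM to 4011, 4093 and 4879 CPM (1.09 ± 0.15, 0.00308). Anxa2 and S100a10, partners in a complex known to bind cytosolic phospholipase A2, rose by 0.90 ± 0.13 (0.00308) and 1.01 ± 0.17 (0.00647).

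Lpcat1, Lpcat3, Gpx1, Anxa2 and S100a10 were called without each of the 12 libraries in turn, unlike any of the 10 enzymes in this comparison. Leaving out single libraries does not test the removal of both WT chow libraries that stand apart in length. Each of these 5 calls held in 22 of the 23 alternatives run, not in all. Fold changes kept their direction, with Lpcat1 from -1.05 to -0.54 and S100a10 from 0.59 to 1.14. Lpcat3 ran from 0.56 to 0.74, Gpx1 from 0.83 to 1.19 and Anxa2 from 0.68 to 0.97. These genes and Fads1, 6 in all, had smaller fold changes in meKO, where none was called: Lpcat3 0.39, Anxa2 0.48, Gpx1 0.46, S100a10 0.46, Lpcat1 -0.13 and Fads1 -0.37. The interactions of the 6 were not called by edgeR (adjusted p = 0.773 to 0.797). Averaged over genotypes, the diet called 13 of the 77 higher and 18 lower, beside 30.2% of all genes, led by Anxa2 (0.69 ± 0.09), Lpcat3 (0.53 ± 0.07) and Gpx1 (0.77 ± 0.11). Anxa1, the annexin known to restrain phospholipase A2, rose by 0.73 ± 0.11 (adjusted p = 0.0022), and its fold changes within WT (0.73) and within meKO (0.72) were alike.

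Among the other lists in WT, the remaining phospholipases A2 gave 0 higher and 3 lower of 9, the other prostanoid synthases 2 higher and 0 lower of 8, and the other lipoxygenases and epoxygenases 0 higher and 2 lower of 5. With so few genes in a list, these counts do not set it apart from the 21.3% of all genes. The genes below were chosen after their values were seen. Alox15, the 12/15-lipoxygenase of resident peritoneal macrophages, had 5.15, 14.5 and 24.1 CPM on chow and 2.2, 3.2 and 6.2 CPM on HFD, -1.91 ± 0.61 on the log2 scale and at the threshold (edgeR adjusted p = 0.0498), with overlapping groups. The markers of resident large peritoneal macrophages, 10 of 10 listed and 0 of 10 called, summed to 349 to 861 CPM on chow and 1142 to 1838 CPM on HFD. That gain lies mainly in Cd5l, a secreted macrophage protein, at 155, 506 and 490 CPM on chow and 911, 1346 and 1486 CPM on HFD (edgeR adjusted p = 0.0536), while the list's median log2 fold change was -0.11. The part of these macrophages in the results was not tested. Of the 9 receptors listed only Cmklr1 was called, lower at -0.54 ± 0.16 (0.0307).

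Breakdown and transport genes gave 3 higher and 2 lower of 12. Ptgr1, a reductase that inactivates leukotriene B4 and prostaglandin metabolites, rose from 60.5, 58.8 and 69 CPM to 86.4, 92 and 100 CPM (log2 fold change 0.57 ± 0.14, edgeR adjusted p = 0.0207). Dpep2, a dipeptidase that turns leukotriene D4 into leukotriene E4 and so acts downstream of Ltc4s, rose from 208, 229 and 280 CPM to 349, 339 and 391 CPM (0.59 ± 0.13, 0.0161). Mgst3, a membrane relative of Ltc4s with leukotriene C4 synthase activity, rose by 0.81 ± 0.18 (0.0156), and Abcc4, an exporter of prostaglandins and leukotrienes, fell by 0.59 on the log2 scale (0.0361). With 1 library left out, the calls held in 8 (Ptgr1), 9 (Dpep2), 10 (Mgst3) and 7 (Abcc4) of 12 cases. Over the alternatives run the fold changes kept their direction, from 0.47 to 0.94 for Mgst3 and -0.74 to -0.19 for Abcc4.

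**Figure D5:**
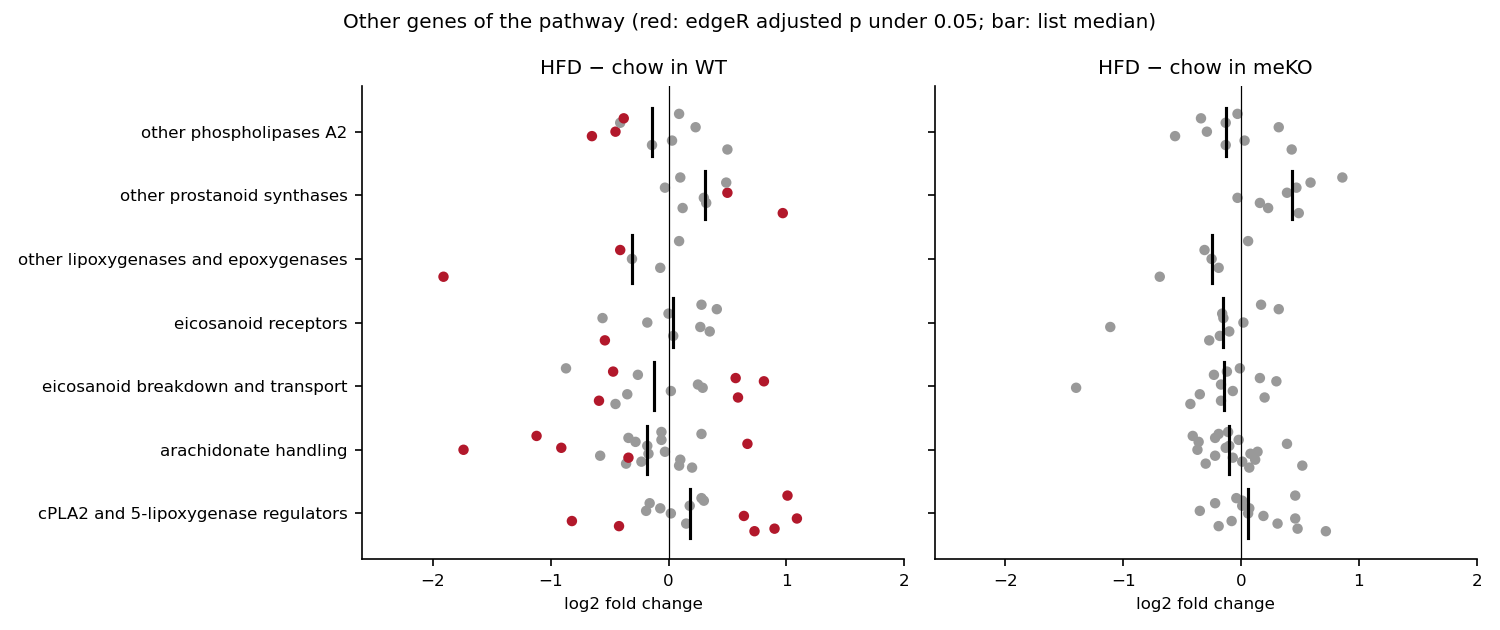
Log2 fold change for the diet in WT and in meKO of the pathway genes in the table, by list, with 1 point per gene, a short bar at each list's median and red points for genes called by edgeR at an adjusted p under 0.05. In WT 25 of the 77 genes are red, on both sides of 0, and in meKO none is.

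The genes whose log2 CPM followed each called enzyme most closely over the 12 libraries were listed as a description, from 11500 genes searched. The libraries share groups and the length trend, so these values carry no test. Alox5 was followed by Pacsin2 (Pearson r 0.959), Parvg (0.945) and A430035B10Rik (0.943), Alox5ap by Prdx5 (0.965), Susd3 (0.963) and Fbxw2 (0.952), and Ltc4s by Avpi1 (0.950), Calml4 (0.944) and Hopx (0.942). Tbxas1 was followed by Rab5c (0.908), Htr2b (0.906) and Me2 (0.889), Ptgs1 by Unc93b1 (0.940), Lbr (0.928) and Eif3f (0.924), and Hpgds by Pcmtd1 (0.918), P2ry12 (0.914) and Cd28 (0.906). After the length and GC correction Pcmtd1 stood at 0.28 with Hpgds, and the others stayed at 0.74 or above.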

How the data were processed

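The authors deposited whole-number counts per gene for 12 libraries, per the file headers; the submitters' processing notes name mm10 and DESeq2 without a role, and the aligner, counter and strand setting are not given in the sources used here. Groups came from the sample titles. The main test on the counts was the quasi-likelihood F test of edgeR 4.0.16 (R 4.3.3), two-sided, with TMM scaling and robust dispersions, in 1 model of the 4 groups over all 12 libraries, with Benjamini-Hochberg adjustment over all 12339 genes and calls at 0.05. The table holds only genes that were not low, so a gene of a single group could be missing; 186 genes, with 0.44% of counts, have no symbol. For the 7 contrasts, genotype was compared within and averaged over diets, diet within and averaged over genotypes, and both in an interaction; fold changes are meKO over WT or HFD over chow. With 3 libraries against 3, an exact test of 1 gene cannot go below 0.1. The fit was tested on simulated data.

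Levels are TMM-scaled CPM, with errors as SD over libraries or SE of a fold change; per-kilobase levels use the longest coding GENCODE M21 transcript. Results were recomputed with library totals, median-of-ratios factors, other count filters (none, or 10 counts in every library), DESeq2 1.42.0, voom (limma 3.58.1) with and without library quality weights, non-robust dispersions, only the groups compared, a length and GC correction, and each library left out. Members and lists were chosen with earlier results of these data known. Named genes were all members, up to 6 called pathway genes per contrast by smallest p, Prkce, Lyz2 and the 3 genes closest to each called member; others, marker genes among them, were chosen after their values were seen.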

Additional observations from a re-analysis of the deposited data

How the results depend on the processing

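The direction of the called enzymes in the WT diet comparison (Ptgs1, Tbxas1, Alox5, Alox5ap and Ltc4s) was kept under all alternatives run, while the number of members called was not: it was 3 after the length and GC correction, 0 without both WT chow libraries tilted to long transcripts, and 0 to 5 with 1 library left out. The cause was not tested. Depth limits Ptgs2 most (9 to 53 counts per library).

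Over all genes, the number called for genotype on chow was 2 with library totals, 2 with limma-voom, 2 with non-robust dispersions, 563 with DESeq2, 5 with only the groups compared, 4 after the length and GC correction and 3 without both tilted libraries. For genotype on HFD it was 53 with DESeq2, 5 with limma-voom, 34 with only the groups compared and 16 without both tilted libraries. For the diet in WT it was 1577 after the correction and 15 without both tilted libraries, and 31.3% of the calls were higher with library totals against 44.5% with TMM. For the diet in meKO it was 226 with DESeq2, 1 with only the groups compared and 60 after the correction. The interaction gave 1 with at least 10 counts in every library, 15 with DESeq2 and 4 after the correction. Genotype averaged over diets gave 366 with DESeq2 and 11 without both tilted libraries, and diet averaged gave 202, with 0 of the members, without them. Voom with library quality weights gave, over all genes, 4047 (genotype on chow), 128 (on HFD), 6411 (diet in WT), 398 (diet in meKO), 295 (interaction), 3835 (genotype averaged) and 6298 (diet averaged), and of the members 4 for genotype on chow, 3 for the interaction and 1 for genotype averaged.

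With 1 library left out, the calls over all genes ran from 2 to 2543 for genotype on chow, 3 to 16 on HFD, 96 to 4921 for the diet in WT, 1 to 135 in meKO, 1 to 56 for the interaction, 8 to 1400 for genotype averaged and 1957 to 5326 for diet averaged, and the members called from 0 to 2 for genotype on chow and from 1 to 5 for diet averaged.

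The sign turned for uncalled members near 0. With library totals this was Ptges at -0.05 (genotype on chow, diet in WT and both averages), Tbxas1 at -0.03 (diet in meKO), Hpgds at 0.01 (interaction), and Pla2g4a at -0.01 and Ltc4s at -0.02 (genotype averaged). With limma-voom it was Ptgs2 at -0.06 and Ptges at -0.01 on chow, and Ptges at -0.06 and -0.01 in the averages of genotype and diet. With quality weights it was Ptgs2 at -0.23 on chow, Ptges at 0.03 on HFD, and in the diet in meKO Ptges at 0.11, Tbxas1 at -0.10, Alox5ap at -0.11 and Ltc4s at -0.11. After the correction the same 4 in meKO stood at 0.08, -0.06, -0.13 and -0.14, and for genotype averaged Pla2g4a at -0.00, Ltc4s at -0.10 and Lta4h at -0.00. Without both tilted libraries it was Ptges at -0.09 (chow), -0.08 (diet in WT), 0.06 (interaction), -0.06 (genotype averaged) and -0.05 (diet averaged), Hpgds at 0.05 (interaction), Pla2g4a at -0.07 and -0.03 in the averages, and Ptgs2 at 0.07 and Ltc4s at -0.19 for genotype averaged.

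With 1 library left out, signs turned within these ranges. Ptges ran from -0.31 to 0.21 on chow, -0.21 to 0.21 on HFD, -0.04 to 0.10 for the diet in WT, -0.20 to 0.32 in meKO, -0.23 to 0.28 for the interaction, and -0.17 to 0.12 and -0.08 to 0.18 in the averages of genotype and diet. Pla2g4a ran from -0.24 to 0.04 on chow, -0.25 to 0.08 for the diet in WT, and -0.05 to 0.14 and -0.03 to 0.14 in the averages. Hpgds ran from -0.15 to 0.03 on chow, -0.28 to 0.05 on HFD and -0.19 to 0.13 for the interaction. For the diet in meKO, Tbxas1 ran from -0.08 to 0.13, Alox5ap from -0.06 to 0.14 and Ltc4s from -0.14 to 0.23. Ptgs2 on chow ran from -0.19 to 0.49, Lta4h on chow from -0.26 to 0.00 and averaged from -0.00 to 0.13, Alox5ap on HFD from -0.15 to 0.04, Ptgs1 on HFD from -0.05 to 0.12 and averaged from -0.09 to 0.00, and Ltc4s averaged over diets from -0.08 to 0.15.

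No paired analysis was possible because replicate numbers were given in accession order and the labels hold no numbers shared between groups.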
